A study of Homo sapiens with 24 samples.

Results

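CHAC1, DDIT4 and SESN2 are 3 stress-inducible human genes that act on glutathione and on growth signalling. They are described here as 3 of the 22109 genes with a value on 24 Affymetrix arrays of HAP1 cells, an adherent and nearly haploid line that descends from KBM-7 leukemia cells. The genes were chosen by symbol on measured values, namely their differences between treated and untreated cells in each of 6 HAP1 lines. Those differences are therefore given as a description, with no test, and no result rests on their size. Each gene had exactly 1 probe set on the array (16799739 for CHAC1, 16705961 for DDIT4 and 16661544 for SESN2), so the rule of taking the brightest probe set of a gene left nothing to choose.

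The 6 lines were the parental line (PAR), S51A, in which the translation factor eIF2-alpha has alanine in place of the stress-phosphorylated serine, and 4 lines each marked in the treatment text as deleted for an eIF2-alpha kinase: HRI, GCN2, PKR and PERK. Each line was measured without drug, after lomustine, a nitrosourea that alkylates and crosslinks DNA (200 µM, 2 h), and after the treatment titled SA100 (2 h). The treatment text gives sodium arsenite at 100 µM, whereas the agent field of the SA100 arrays names lomustine; those arrays were grouped by their titles. Duplicates, lettered A and B, existed for the untreated and the lomustine-treated cells of PAR, S51A and HRI, and the remaining groups rest on 1 array. That made 9 arrays without drug, 9 with lomustine and 6 with SA100. The labels do not say whether lettered arrays came from separate cultures, so the spread between them may be technical, nor how many clones stand behind a line.

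CHAC1 cleaves the gamma-glutamyl bond of glutathione and so degrades the main thiol antioxidant of the cell. DDIT4, also called REDD1, releases the TSC complex, which switches off the small GTPase RHEB and with it the growth kinase complex mTORC1. SESN2 (sestrin 2) binds the GATOR2 complex and also lowers mTORC1 activity when leucine is scarce. All of them are textbook targets of the integrated stress response, in which a kinase phosphorylates eIF2-alpha, general translation falls and the transcription factor ATF4 is made. DDIT4 is also induced by hypoxia and by p53, and SESN2 by p53 and by the antioxidant regulator NRF2.

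The 3 genes have in common that they were high together, so the bases before their transcription starts are shown with motifs of 2 kinds in capitals. The windows are the 250 bases before the RefSeq start, on the plus strand of GRCh38.p14, at chr15:40953221-40953470 for CHAC1, chr10:72273674-72273923 for DDIT4 and chr1:28259268-28259517 for SESN2.
CHAC1: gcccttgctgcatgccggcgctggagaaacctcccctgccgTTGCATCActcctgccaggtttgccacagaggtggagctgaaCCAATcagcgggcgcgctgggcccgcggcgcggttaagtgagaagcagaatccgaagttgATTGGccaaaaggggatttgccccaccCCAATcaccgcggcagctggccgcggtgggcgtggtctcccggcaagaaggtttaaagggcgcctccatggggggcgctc
DDIT4: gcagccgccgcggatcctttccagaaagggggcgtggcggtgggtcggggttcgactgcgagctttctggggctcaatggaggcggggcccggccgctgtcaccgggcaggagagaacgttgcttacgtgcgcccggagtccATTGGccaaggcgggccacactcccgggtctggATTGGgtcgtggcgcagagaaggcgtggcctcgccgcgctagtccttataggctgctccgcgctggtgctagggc
SESN2: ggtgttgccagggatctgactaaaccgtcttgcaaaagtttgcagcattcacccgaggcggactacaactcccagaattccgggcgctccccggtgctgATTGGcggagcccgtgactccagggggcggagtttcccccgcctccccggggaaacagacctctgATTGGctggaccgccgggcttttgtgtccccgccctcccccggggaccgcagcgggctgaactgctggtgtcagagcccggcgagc
In capitals are the composite site of ATF4 and C/EBP factors (TGATGCAA or its reverse complement TTGCATCA) and the CCAAT box (CCAAT or ATTGG).

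CHAC1 held 1 composite site, 209 to 202 bases before the start, whereas this window of DDIT4 or SESN2 held none. Among 27303 windows of the same length, 0.82% held it. The relaxed form TGATGNAA, which overlaps it, occurred in 3.19% of windows and matched the same bases of CHAC1 alone. CCAAT boxes numbered 3 in CHAC1, 2 in DDIT4 and 2 in SESN2, and 33.0% of all windows held at least 1. The core ACGTG of the hypoxia response element, present in 18.7% of windows, occurred once, in DDIT4, 125 to 121 bases before the start. The cAMP response element TGACGTCA (1.77% of windows), AP-1 (TGANTCA, 6.6%), the heat shock core GAANNTTC (5.85%), the antioxidant element TGACNNNGC (11%), EGR (GCGNGGGCG, 8.25%) and the E-box CACGTG (6.49%) had no match on either strand. The windows were GC-rich, at 64.8% for CHAC1, 68.8% for DDIT4 and 65.6% for SESN2, against a median of 58% for all windows. A match is a stretch of letters, not a bound site, and a missing match says only that these letters are not in this window.

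Array values are log2 units after RMA, and the median of all values, 2.42, served as a mark below which a signal was not told from background. All 24 arrays lay above it for each of the 3 genes. S51A lomustine B stood apart, in that 8.72% of its probe sets lay over 1 log2 unit away from the other arrays' median; PAR lomustine A followed at 3.38% and HRI without drug A at 3.11%. Duplicate arrays correlated least in S51A with lomustine (r = 0.937 over probe sets) and in PAR with lomustine (r = 0.958), and HRI without drug A was closer to HRI lomustine B (r = 0.971) than to its own duplicate (r = 0.964). The kinase transcripts were set against the line names. EIF2AK4 in GCN2 was lowest of all lines without drug (5.84 against 6.10 or more) and with SA100 (5.76 against 5.91 or more); with lomustine (5.89) the arrays S51A lomustine B (5.63) and PAR lomustine A (5.76), both named above, lay below it. EIF2AK3 in PERK was lowest without drug (3.33 against 3.38 or more) but not with lomustine (3.54), where an S51A array had 3.34. With SA100 it had 4.31 in PERK, where S51A was lowest at 3.33 and only HRI (4.41) lay above PERK. EIF2AK1 ran from 7.49 to 7.84 in HRI against 6.92 to 7.96 elsewhere, and EIF2AK2 from 6.74 to 7.79 in PKR against 6.35 to 7.94, so these did not separate their lines. Where the probes lie relative to the deletions is not given in the sources used here, and the base change of S51A is not visible to the array. The leukocyte gene PTPRC had a mean of 1.76 over the arrays, below the mark, and CD34 had 2.38. Of 7 blood markers measured 5 lay above it, led by GATA1 at 3.85, as did 6 of 10 epithelial markers, led by KRT8 at 3.67, and 3 of 9 fibroblast markers, led by VIM at 5.09. None of the markers tested passed in any of the treatment comparisons below, and the summed blood marker values ran from 17.7 to 20.4 without drug, 17.7 to 19.5 with lomustine and 18.5 to 19.6 with SA100. The epithelial sums were 26.0 to 29.9, 26.4 to 30.2 and 26.5 to 28.2, and the fibroblast sums 21.3 to 24.5, 22.7 to 25.4 and 23.9 to 25.5, in the same order.

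The levels without drug also enter the differences on which the genes were chosen, so they are described and nothing is read from a test of them. CHAC1 ran from 4.42 in PERK to 5.33 in GCN2, with a median of 5.06 over the 9 arrays. DDIT4 ran from 2.82 to 4.05, both ends in duplicated lines (HRI A and PAR A), with a median of 3.59. SESN2 ran from 4.05 in an S51A and an HRI array to 5.20 in the other HRI array, with a median of 4.77. The order of the line means was GCN2, PAR, S51A, HRI, PKR, PERK from the top for CHAC1, PKR, PAR, GCN2, PERK, S51A, HRI for DDIT4 and PKR, PAR, PERK, GCN2, HRI, S51A for SESN2. In none of these orders did neighbouring lines differ by more than the pooled SD of duplicate arrays, which was 0.408 for CHAC1, 0.423 for DDIT4 and 0.431 for SESN2. The ends of the orders lay further apart than that SD, for example 4.42 and 5.33 for CHAC1 and 4.22 and 5.00 for SESN2.

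The largest of the 15 no-drug differences from PAR, over 3 genes and 5 lines, was that of SESN2 in S51A, at -0.75 (SE 0.374), from means of 4.97 in PAR and 4.22 in S51A. CHAC1 in PERK differed by -0.74 (SE 0.439), from 5.15 to 4.42. DDIT4 in HRI differed by -0.58 (SE 0.369), from 3.83 to 3.24. In limma's fit of 1 mean per group, with Benjamini-Hochberg adjustment over the 17339 genes tested, 0 of the 15 passed, which is no independent evidence and does not show that the lines were alike. The same fit called 0.323% of all genes between S51A and PAR, 0.00577% for GCN2 and 0% for HRI, PKR and PERK. At an unadjusted p under 0.05 there were 311 genes for HRI, 354 for PKR and 422 for PERK. The groups of 1 array were assumed to vary like the duplicated ones, and an SE near 0.4 leaves differences of that size undetected.

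CHAC1 was higher after both treatments in most lines, least so in S51A. In PAR its 2 untreated arrays had 5.08 and 5.23, the lomustine arrays 6.89 and 8.17 and the SA100 array 8.31. In S51A the untreated arrays had 4.81 and 5.27, the lomustine arrays 5.21 and 5.30 and the SA100 array 6.03. The parental lomustine arrays thus lay well apart from the untreated ones, while those of S51A overlapped them. HRI had 4.80 and 5.06 without drug, 5.71 and 5.96 with lomustine and 7.71 with SA100, so that lomustine gave a small step and SA100 a large one. In GCN2 the values were 5.33, 8.0 and 9.23 for no drug, lomustine and SA100, in PKR 4.68, 7.21 and 8.80, and in PERK 4.42, 7.22 and 8.31. These 3 lines, like PAR, stepped up from no drug to lomustine and again to SA100.

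As a difference of group means, lomustine minus no drug for CHAC1 was 0.22 in S51A, 0.90 in HRI, 2.37 in PAR, 2.54 in PKR, 2.67 in GCN2 and 2.81 in PERK. In fold terms this ran from 1.16-fold in S51A to 6.99-fold in PERK. The steps above PAR were smaller than even the pooled SD of single duplicate arrays (0.408). A gap between differences, many of which rest on 1 array each, has a larger error than that SD, and no gap between lines was tested. SA100 minus no drug was 1.00 in S51A, 2.78 in HRI, 3.16 in PAR, 3.90 in both GCN2 and PERK and 4.13 in PKR, or 1.99-fold to 17.5-fold. S51A stood 1.78 below HRI, whereas HRI and PAR differed by 0.38. In PAR the 2 lomustine arrays differed by 1.27, the widest gap of any duplicated group for this gene, and the PAR lomustine difference was 1.74 without array B and 3.01 without array A.

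DDIT4 behaved alike in S51A but put the lines in another order. Its untreated arrays in PAR had 4.05 and 3.61, the lomustine arrays 6.79 and 6.93 and the SA100 array 6.68, so that both treatments reached about the same level there. In S51A the values were 3.43 and 3.20 without drug, 3.39 and 3.90 with lomustine and 4.46 with SA100. The lomustine arrays of S51A overlapped its untreated ones, and its SA100 array lay above both. In HRI the untreated arrays had 2.82 and 3.67, the lomustine arrays 4.53 and 5.47 and the SA100 array 5.56. The sequence of no drug, lomustine and SA100 was 3.59, 5.83 and 7.73 in GCN2, 3.91, 5.63 and 6.91 in PKR and 3.39, 5.11 and 6.28 in PERK. In each of these 3 lines SA100 lay more than 1 log2 unit above lomustine, unlike in PAR.

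The lomustine difference of DDIT4 was 0.33 in S51A (1.26-fold), 1.72 in PERK, 1.72 in PKR, 1.75 in HRI, 2.24 in GCN2 and 3.04 in PAR (8.20-fold). PERK, PKR and HRI lay within 0.04 of one another, and S51A lay 1.38 below them. With SA100 the difference was 1.15 in S51A (2.22-fold), 2.32 in HRI, 2.85 in PAR, 2.89 in PERK, 3.0 in PKR and 4.15 in GCN2 (17.7-fold). S51A at the bottom lay 1.17 below HRI and GCN2 at the top 1.14 above PKR, the latter from 1 array with and 1 without SA100; PAR, PERK and PKR lay closer together than the SD of single arrays, 0.423. The 2 untreated HRI arrays differed by 0.86 and the 2 lomustine arrays by 0.94, so the HRI lomustine value ran from 1.28 to 2.23 as each of its 4 arrays was left out.

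SESN2 had the narrowest range over lines. In PAR it had 4.89 and 5.05 without drug, 6.96 and 7.11 with lomustine and 7.72 with SA100. In S51A it had 4.39 and 4.05 without drug, 5.46 and 4.62 with lomustine and 5.79 with SA100, so that here, unlike for CHAC1 and DDIT4, both lomustine arrays lay above both untreated ones. HRI gave 4.05 and 5.20 without drug, 5.83 and 6.06 with lomustine and 6.61 with SA100. In GCN2 the values were 4.73, 6.65 and 8.03 for no drug, lomustine and SA100, in PKR 5.00, 6.80 and 7.63 and in PERK 4.77, 6.84 and 7.51. The ordering of no drug below lomustine below SA100 held in all 6 lines for the group means of SESN2.

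The lomustine difference of SESN2 was 0.82 in S51A (1.76-fold), 1.32 in HRI, 1.80 in PKR, 1.92 in GCN2, 2.06 in PAR and 2.07 in PERK (4.21-fold). With SA100 it was 1.57 in S51A (2.96-fold), 1.98 in HRI, 2.63 in PKR, 2.74 in both PAR and PERK and 3.30 in GCN2 (9.84-fold). The SA100 gap between S51A and HRI, 0.41, was below the pooled SD of 0.431. HRI rests on untreated arrays that differ by 1.14; without HRI untreated array A the HRI differences were 0.74 and 1.41, both below those of S51A, and without array B they were 1.89 and 2.55.

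**Figure D1:**
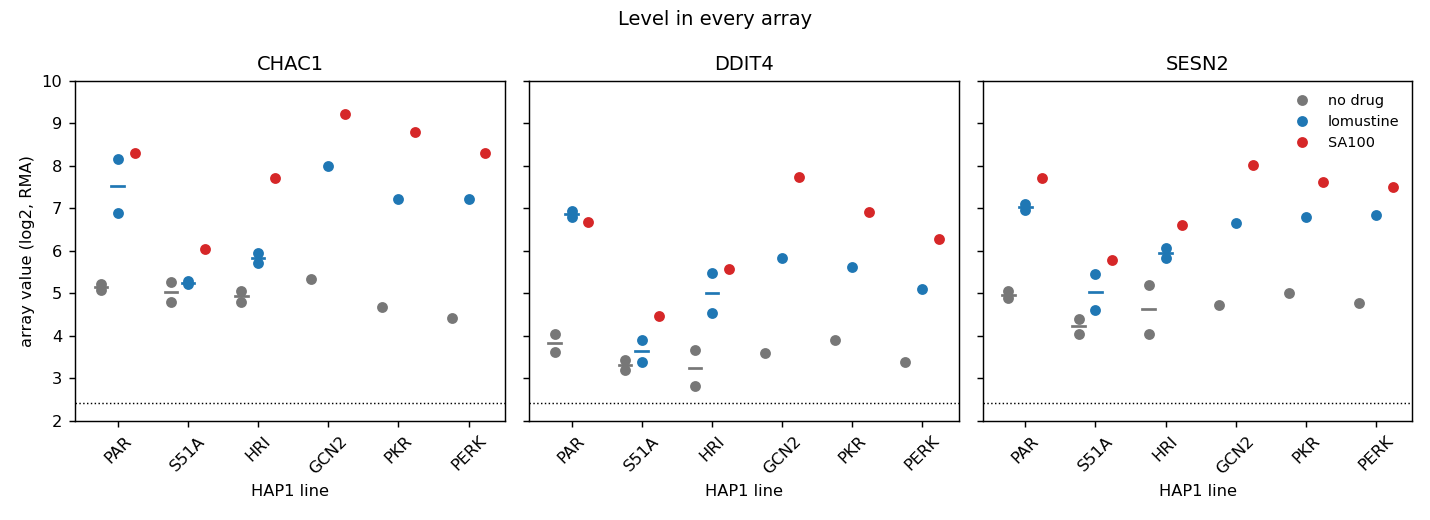
Level of CHAC1, DDIT4 and SESN2 on every array (log2, RMA) in the 6 HAP1 lines, with no drug in grey, lomustine in blue and SA100 in red; short bars are means of 2 arrays and the dotted line is the median of all values, 2.42. In S51A the treated arrays sit lowest: its SA100 arrays reach 6.03, 4.46 and 5.79.

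S51A had the smallest difference of the 6 lines for all 3 genes and with both treatments. Over all genes tested, the change was smallest in S51A for 30% with lomustine and for 15.3% with SA100. The lomustine share fell to 10.6% without S51A lomustine B, with the 3 genes still smallest in S51A. Among the 43 genes that limma called higher with lomustine across lines, 46.5% were smallest in S51A, and of the 365 called higher with SA100, 27.9% were. Both sets contain the 3 genes themselves, so these shares are not an outside measure of them. The 46.5% was not recomputed without S51A lomustine B. The levels show the same placement. With lomustine, the S51A arrays had 5.30 at most for CHAC1 against at least 5.71 on the 7 other arrays, 3.90 against 4.53 for DDIT4 and 5.46 against 5.83 for SESN2. Both S51A arrays lay below all others for 2.91% of all genes tested, and array A alone did for 7.94% when S51A lomustine B was left out, the 3 genes included. With SA100, the 1 S51A array was below the 5 others for all 3 genes, which held for 17.8% of all genes. Without drug, S51A overlapped the other lines for all 3. Since the genes were chosen on their differences in each line, this placement is a description and was not tested.

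Leaving out S51A lomustine B gave S51A lomustine differences of 0.17 for CHAC1, 0.07 for DDIT4 and 1.24 for SESN2, and leaving out array A gave 0.26, 0.59 and 0.40. The array that stands apart thus set neither the low placement of CHAC1 nor that of DDIT4. SESN2 remained smallest in S51A either way. Without array B, however, SESN2 had 1.24 in S51A against 1.32 in HRI, a gap below the pooled SD of 0.431. HRI, deleted in the line of that name, is the kinase known for its response to arsenite and heme. In that line the differences were second smallest for CHAC1 and SESN2 with both treatments and for DDIT4 with SA100. For DDIT4 with lomustine, S51A, PERK and PKR were smaller. Without HRI untreated array B, SESN2 with lomustine had 1.89 in HRI, above PKR at 1.80. The SA100 gap of CHAC1 between HRI and PAR, 0.38, was below the pooled SD of 0.408. How often HRI was second smallest over all genes was not computed, and this rank was not tested.

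**Figure D2:**
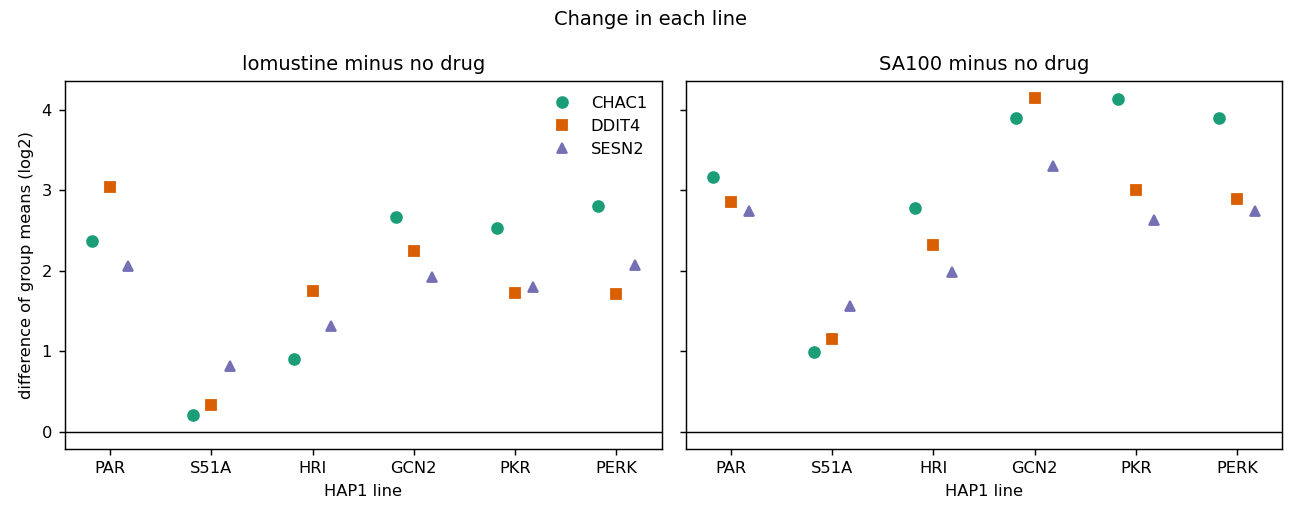
Difference of group means from no drug (log2) in each HAP1 line, for lomustine on the left and SA100 on the right, with CHAC1 as circles, DDIT4 as squares and SESN2 as triangles. The S51A points are the lowest in both panels, from 0.22 to 0.82 with lomustine and from 1.00 to 1.57 with SA100.

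Across the lines together, CHAC1 had a mean of 4.96 without drug (SD 0.308, n = 9), 6.63 with lomustine (SD 1.12, n = 9) and 8.07 with SA100 (SD 1.12, n = 6). DDIT4 had 3.52 (SD 0.368), 5.29 (SD 1.2) and 6.27 (SD 1.14), and SESN2 had 4.68 (SD 0.424), 6.26 (SD 0.834) and 7.21 (SD 0.847) in the same arms. The SD over arrays, in which duplicated lines count with both arrays, was thus larger under both treatments than without drug for each gene. The lowest SA100 array lay above the highest untreated array for each gene, while the lomustine arrays of CHAC1, DDIT4 and SESN2 overlapped the untreated ones at their lower end, through S51A. In the fit with terms for treatment and line, where the median of all genes was -0.04 with lomustine and 0.04 with SA100, the genes ranked 6, 4 and 8 from the top of 17339 with lomustine and 8, 11 and 14 with SA100. SA100 exceeded lomustine by 1.31 for CHAC1 (SE 0.324), 0.89 for DDIT4 (SE 0.308) and 0.85 for SESN2 (SE 0.204). Both treatments share the same untreated arrays.

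The profiles most like each gene were found as the smallest root mean square distance between values over the 24 arrays, each gene centred on its own mean. The nearest to CHAC1 were DDIT4 (0.54 log2 units), SESN2 (0.54), MXD1 (0.71), ATF3 (0.73) and ULBP1 (0.74). The nearest to DDIT4 were SESN2 (0.45), CHAC1 (0.54), ULBP1 (0.65), ATF3 (0.70) and MXD1 (0.72). SESN2 had DDIT4 (0.45), MXD1 (0.47), ULBP1 (0.50), CHAC1 (0.54) and FOSB (0.55). The median distance of all genes was 1.49 for CHAC1, 1.44 for DDIT4 and 1.23 for SESN2, so the 3 genes were among one another's nearest 4 of all genes tested. The arrays share their treatments, so any gene with steps of like size comes close on this measure. The 3 genes were chosen on those steps in each line, so their nearness to one another is a description and no support for a shared control.

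These neighbours differed in S51A. ULBP1, a ligand of a natural killer cell receptor, had differences of 0.34 with lomustine in S51A against 2.02 to 2.38 in the other lines, and 1.73 against 2.00 to 2.54 with SA100. MXD1, an antagonist of MYC, had 0.64 against 1.01 to 1.59 with lomustine, but 1.91 with SA100, inside the range of the other lines (1.73 to 2.57). ATF3, a stress transcription factor, had 0.78 with lomustine, just below the other lines (0.83 to 2.64), and 2.37 with SA100, inside their range (2.14 to 3.96). FOSB, an AP-1 subunit, lay inside the range of the other lines with both treatments, at 1.51 (1.27 to 1.73) and 1.61 (1.17 to 2.68). Of these 4 neighbours, ULBP1 was the 1 that was lowest in S51A under both treatments, as CHAC1, DDIT4 and SESN2 were.

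The closest relatives of the 3 genes did not pass the test in any comparison of treatments. Of all genes, 0.248% were called higher and 0.779% lower with lomustine, and 2.11% and 0.952% with SA100. Between SA100 and lomustine the shares were 5.48% and 0.473%, so 0 of 4 does not set the relatives apart from other genes. CHAC2, a constitutive enzyme with the same activity as CHAC1, differed by 0.05 with lomustine (SE 0.165, adjusted p = 0.93) and 0.38 with SA100 (SE 0.186, adjusted p = 0.31). The lines were not alike for CHAC2. With lomustine and SA100 it rose by 0.74 and 1.30 in PKR and by 0.99 and 1.55 in PERK, from 1 array per group. In the other lines its differences ran from -0.37 (GCN2, lomustine) to 0.32 (HRI, SA100). DDIT4L, the relative of DDIT4, differed by -0.15 (SE 0.094, adjusted p = 0.50) and 0.01 (SE 0.106, adjusted p = 0.97). SESN1, a sestrin known as a p53 target, differed by 0.05 (SE 0.097, adjusted p = 0.85) and -0.14 (SE 0.110, adjusted p = 0.59), and SESN3, a FOXO target, by -0.37 (SE 0.200, adjusted p = 0.41) and -0.05 (SE 0.226, adjusted p = 0.95). The p-values are from limma, adjusted over all genes tested. The arrays of the untreated and treated cells overlapped for each of the 4. SESN3 spanned the mark of 2.42, at 2.31 to 4.40 without drug, and was above it on 8 of 9 untreated arrays. Without drug, CHAC2 had 3.78 in PKR and 3.74 in PERK against a mean of 5.09 in PAR (unadjusted p = 0.0028 and 0.0023), and SESN3 had 2.31 in PERK against 4.03 (unadjusted p = 0.0061); in limma's fit none of these passed, with adjusted p = 0.9998 for PKR and 0.9997 for PERK.

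**Figure D3:**
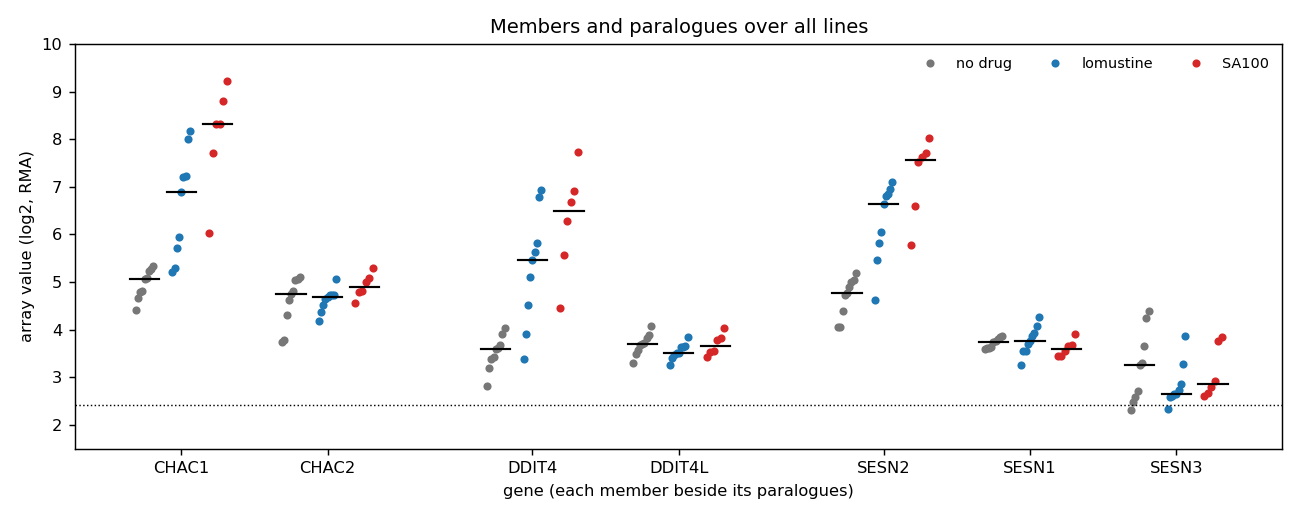
Values on every array (log2, RMA) for CHAC1, DDIT4 and SESN2 beside their relatives CHAC2, DDIT4L, SESN1 and SESN3, with no drug in grey, lomustine in blue and SA100 in red; black bars are medians and the dotted line is 2.42. The treated medians of CHAC1, DDIT4 and SESN2 stand above their untreated medians, whereas those of the relatives lie near or below them; levels of different genes are not comparable on this scale.

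Around CHAC1, 26 genes of glutathione turnover and synthesis were tested. With lomustine 0 of the 26 passed in either direction, where 0.248% of all genes were called higher and 0.779% lower (43 and 135 genes, but 101 and 86 after a further quantile normalization). The smallest p belonged to CNDP2, a dipeptidase that cleaves cysteinylglycine, at -0.43 (SE 0.111, adjusted p = 0.063), and to SLC3A2, the heavy chain shared by the cystine and leucine transporters, at 0.25 (SE 0.097, adjusted p = 0.24). With SA100 2 rose and 0 fell, where 2.11% of all genes were called higher and 0.952% lower (365 and 165 genes, but 521 and 376 after that normalization): CTH, which makes cysteine from cystathionine, by 1.09 (SE 0.222, adjusted p = 0.0077, higher in 5 of 6 lines), and SLC3A2 by 0.80 (SE 0.110, adjusted p = 9.5e-05, higher in 6 of 6). The median of the list was -0.03 with lomustine and 0.08 with SA100, close to those of all genes.

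Around DDIT4, 25 genes of the TSC and RHEB branch and of mTORC1 itself gave 0 calls with lomustine and 0 with SA100. Of all genes, 0.248% were called higher and 0.779% lower with lomustine, and 2.11% and 0.952% with SA100. At such shares a count of 0 or 1 says little about a list of this size. Their smallest p under lomustine belonged to PDPK1, a kinase that activates AKT, at -0.33 (SE 0.114, adjusted p = 0.18), and to RHEBL1, a relative of RHEB, at 0.20 (SE 0.072, adjusted p = 0.195). Under SA100 they were STK11, the kinase upstream of AMPK, at -0.54 (SE 0.170, adjusted p = 0.0945), and RHEBL1 at 0.26 (SE 0.082, adjusted p = 0.097). RHEBL1 had an untreated mean of 2.33, below the mark. Around SESN2, 27 genes of the GATOR and RAG complexes, which relay amino acids to mTORC1, gave 0 calls with lomustine, where SEH1L, a GATOR2 subunit, had -0.41 (SE 0.111, adjusted p = 0.086) and KICS2, part of the KICSTOR scaffold that holds GATOR1 at the lysosome, -0.46 (SE 0.132, adjusted p = 0.098). With SA100 1 fell, KICS2, at -0.61 (SE 0.149, adjusted p = 0.028, lower in 6 of 6 lines). Without PAR lomustine A and S51A lomustine B, SA100 gave 1 lower call in the TSC and RHEB list, and 1 higher call beside the 1 lower in the GATOR and RAG list. The medians with lomustine and SA100 were -0.08 and -0.05 for the former list and -0.08 and 0.04 for the latter.

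Among 15 transcription factors reported to act on the 3 genes, 2 rose with lomustine and 0 fell, where 0.248% and 0.779% of all genes did: ATF3 by 1.42 (SE 0.208, adjusted p = 6.5e-04) and CEBPB by 0.47 (SE 0.101, adjusted p = 0.024). The count was 1 when PAR lomustine A and S51A lomustine B were left out. With SA100 4 rose and 0 fell, where 2.11% and 0.952% of all genes did: ATF3 by 2.71 (SE 0.234), DDIT3, which encodes CHOP, by 1.81 (SE 0.313), TRIB3, a pseudokinase that restrains ATF4, by 0.69 (SE 0.111) and CEBPB by 0.64 (SE 0.113). ATF4 differed by 0.30 with lomustine (SE 0.078, adjusted p = 0.065) and 0.21 with SA100 (SE 0.088, adjusted p = 0.225), and its own regulation is known to lie largely in translation, which an array does not see. DDIT3 was also lowest in S51A, at 0.09 with lomustine against 0.72 to 1.98 in the other lines and 0.53 against 1.01 to 2.99 with SA100. Its untreated mean of 2.29 was below the mark, where a signal was not told from background. TRIB3 was lowest in S51A with SA100, at 0.26 against 0.51 to 1.12. With lomustine it had -0.03 in S51A against -0.01 to 0.34 in the other lines. There S51A was hardly below HRI (-0.01), whose 2 lomustine arrays had 4.38 and 3.83, so that rank is not resolved. ATF4 was not lowest in S51A: it had 0.23 with lomustine and 0.17 with SA100 there, and HRI was lowest at 0.07 and -0.14.

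Of 36 other ATF4 targets, 6 rose with lomustine and 0 fell (0.248% and 0.779% of all genes), led by ULBP1 (1.84, SE 0.233), ATF3, PPP1R15A (0.82, SE 0.127), a phosphatase subunit that reverses eIF2-alpha phosphorylation, and SLC38A2 (0.75, SE 0.086), a transporter of neutral amino acids. With SA100 12 rose and 1 fell (2.11% and 0.952% of all genes), led by ATF3, ULBP1 (2.15, SE 0.263), PPP1R15A (1.83, SE 0.144) and DDIT3; the gene that fell was AARS1, the alanyl-tRNA synthetase, at -0.42 (SE 0.092). When the arrays PAR lomustine A and S51A lomustine B were left out, 5 rose and 0 fell with lomustine, and 12 rose and 3 fell with SA100. The median change of the list was 0.06 with lomustine and 0.13 with SA100. The list shares members with that of transcription factors and with that of glutathione. It also holds GADD45A, which is counted among the p53 targets as well.

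Targets of p53 and of the hypoxia-inducible factors, which also act on DDIT4 or SESN2, were counted against the same shares of all genes, 0.248% higher and 0.779% lower with lomustine and 2.11% and 0.952% with SA100. Of 23 p53 targets, 2 rose with lomustine, PMAIP1 by 0.72 (SE 0.133) and PLK2, whose untreated mean of 2.27 was below the mark, by 0.47 (SE 0.112), and 1 fell, MDM2 at -0.70 (SE 0.149). With SA100 7 rose and 0 fell, led by PMAIP1 (1.36, SE 0.149), GADD45A (1.18, SE 0.152), PPM1D (1.04, SE 0.154) and PLK2 (0.65, SE 0.127). Of 17 targets of the hypoxia-inducible factors, 1 rose with lomustine, the growth factor VEGFA by 0.46 (SE 0.110, adjusted p = 0.048), and 0 passed without PAR lomustine A and S51A lomustine B. With SA100 3 rose: the peptide hormone ADM by 1.54 (SE 0.184), VEGFA by 0.73 (SE 0.124) and ANKRD37 by 0.53 (SE 0.116), with 0 lower; 5 rose without those 2 arrays. The medians with lomustine and SA100 were -0.05 and 0.22 for the p53 targets and -0.05 and 0.17 for the hypoxia targets.

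**Figure D4:**
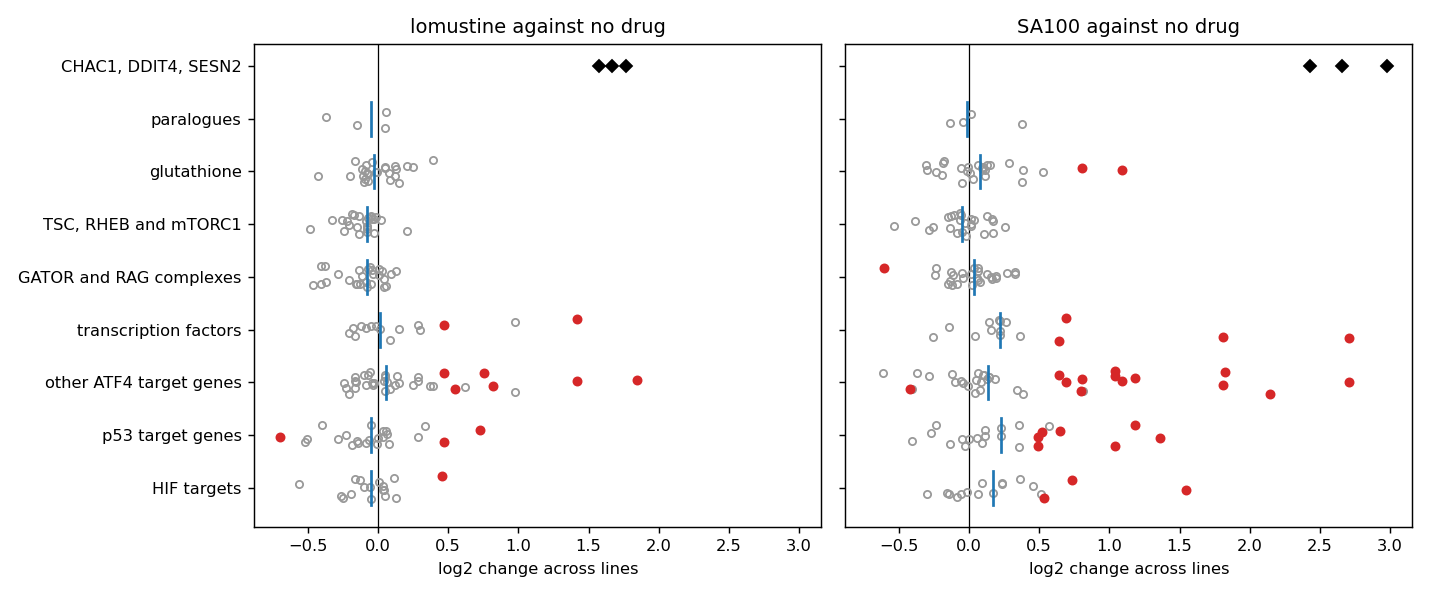
Log2 change across lines with lomustine (left) and SA100 (right) for the genes of each list. Filled red circles passed limma's test at an adjusted p of 0.05, open grey circles did not, and blue bars are list medians. Black diamonds are CHAC1, DDIT4 and SESN2, which were in the fit of all genes but for which no test is reported. The diamonds run from 1.58 to 1.77 with lomustine and from 2.43 to 2.98 with SA100, and the relatives are among the open circles in both panels. Of all genes tested, 0.248% passed as higher and 0.779% as lower with lomustine, and 2.11% and 0.952% with SA100.

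Set directly against lomustine, SA100 gave higher values for 5.48% of all genes and lower ones for 0.473%, or 950 and 82 genes. The split was 643 and 328 after a further quantile normalization, and 987 and 384 without PAR lomustine A and S51A lomustine B. In the glutathione list 2 were higher, SLC3A2 by 0.56 (SE 0.110) and CNDP2 by 0.42 (SE 0.125). In the TSC and RHEB list 2 were higher, PDPK1 by 0.50 (SE 0.129) and RHEB itself by 0.35 (SE 0.098), and in the GATOR and RAG list 1, RRAGC by 0.36 (SE 0.101). Of the transcription factors 2 were higher, ATF3 by 1.29 (SE 0.234) and TRIB3 by 0.55 (SE 0.111). The ATF4 targets had 5 higher, among them PPP1R15A by 1.01 (SE 0.144) and GADD45A by 0.90 (SE 0.152), and 2 lower, SLC7A5 at -0.46 (SE 0.120) and AARS1 at -0.36 (SE 0.092). Of the p53 targets 8 were higher, led by GADD45A, TIGAR (0.86, SE 0.199) and TNFRSF10B (0.72, SE 0.111), and of the hypoxia targets 3, ADM by 1.49 (SE 0.184), ANKRD37 by 0.50 (SE 0.116) and SLC2A1 by 0.49 (SE 0.105). The relatives of the 3 genes had 0 calls here too. When PAR lomustine A and S51A lomustine B were left out, the glutathione list had 1 higher call, the GATOR and RAG list 0, the TSC and RHEB list 2 higher and 2 lower, and the ATF4 targets 5 higher and 4 lower.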

How the data were processed

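The authors deposited log2 values of 53617 probe sets, made with RMA and the R package affy per the submitters' processing notes; versions, filters and the build are not given in the sources used here. RMA normalizes quantiles, a step that removes shifts common to all genes. The medians of the deposited arrays still ran from 2.34 (PAR lomustine B) to 2.58 (S51A lomustine B), so some differences between arrays remained. Probe sets were joined to the platform annotation: 23558 listed 1 symbol, 2155 several and 27904 none. Symbols were matched to RefSeq by gene ID for 22271 probe sets (3 updated). The brightest probe set stood for each of 22109 genes, and 17339 with at least 2 of 24 arrays at or above 2.42 were tested across all genes.

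Tests used limma 3.58.1 in R 4.3.3, two-sided, with Benjamini-Hochberg adjustment and a threshold of 0.05, with terms for treatment and line (16 residual degrees of freedom) or 1 mean for each of 18 groups (6). The fits were tested on simulated data. Arrays give no read depth; their number limits precision. The members, lists and tests were chosen with earlier results of these data known. Genes named are the members, their relatives, ATF4, DDIT3, ATF3, TRIB3, the kinases, up to 4 passing genes per list by size (or the 2 with the smallest p) and the 5 nearest profiles; AARS1 and SLC7A5 were added after their values were seen. Promoter windows are from RefSeq; all 3 matched, and the motifs were chosen after the windows had been read. Alternatives are in the closing section.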

Additional observations from a re-analysis of the deposited data

How the results depend on the processing

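The differences of CHAC1, DDIT4 and SESN2 across lines kept their sign under every alternative, and all but 2 values stayed within the SD of duplicate arrays. The exceptions came without the S51A line, where CHAC1 was 2.08 with lomustine and 3.46 with SA100. Other gene filters, the mean of all probe sets, another variance prior and the replicate block cannot move these values, so those alternatives are no check of them. S51A had the smallest difference under every alternative that keeps that line, except for SESN2 without HRI untreated array A. For SESN2 the margin was at times small. After a further quantile normalization it had 1.07 in S51A against 1.28 in HRI with lomustine, and 1.65 against 1.80 with SA100. The lomustine difference of CHAC1 in S51A turned to -0.016 without S51A untreated array B and was 0.45 without array A. Of the 15 no-drug differences, which the choice of the genes touches, 0 passed under any alternative. Among these was the one without PAR lomustine A and S51A lomustine B, chosen after seeing the data. With SEs this large such an outcome does not show that the lines were alike, and nothing is read from it.

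Counts over all genes moved more, and the cause was not tested. The 178 calls with lomustine became 91 with arrays centred, 114 with only the arrays compared, and 50, 94, 109, 65, 102 and 93 without the PAR, S51A, HRI, GCN2, PKR and PERK lines; single arrays left out gave 89 (PAR untreated B) to 321 (S51A lomustine A). The 530 with SA100 became 897 after quantile normalization, 277 centred, 336, 345, 210, 213 and 206 without PAR, HRI, GCN2, PKR and PERK, 1209 without both arrays that stand apart, and 234 to 933 without single arrays (PERK SA100 and S51A lomustine B). The 1032 between SA100 and lomustine became 590 centred, 320 with only the arrays compared, 657, 452, 439 and 328 without HRI, GCN2, PKR and PERK, and 418 to 1236 without single arrays (PERK SA100 and S51A lomustine A). Quantile normalization split the lomustine calls into 101 higher and 86 lower, against 43 and 135, the SA100 calls into 521 and 376, against 365 and 165, and those between SA100 and lomustine into 643 and 328, against 950 and 82; without both arrays the split was 81 and 80 with lomustine, 724 and 485 with SA100 and 987 and 384 between them. The 56 between S51A and PAR without drug became 28 with the stricter filter, 96 with only the arrays compared, 96 without both arrays and 25 to 94 without single arrays. GCN2 had 0 calls in place of 1 with the stricter filter and with only the arrays compared, and 1 to 4 without single arrays; HRI had 2 and PERK 1 in place of 0 without both arrays, and 0 to 3, 0 to 2 and 0 to 2 for HRI, PKR and PERK without single arrays.

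The letters A and B did not pair the arrays in the same way in each line. A minus B without drug against A minus B with lomustine gave r over genes of 0.334 in PAR, -0.388 in S51A and -0.561 in HRI. Arrays of the same letter thus deviated alike in PAR, and arrays of opposite letters in S51A and HRI. A replicate block set by the letters cannot take up a difference that crosses them, and its source was not tested. With the replicate block the calls between S51A and PAR were 35 in place of 56; 1 gene was then lower in the glutathione and in the hypoxia list with lomustine and 1 in the TSC and RHEB list with SA100, where 0 were before. It changed no other count here by over 1.5 times.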
